A study of Drosophila melanogaster with 30 samples.

Results

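A set of 132 microarray probes had ratios of constant sign between males and females in the developing central nervous system (CNS) of Drosophila melanogaster, and they were followed through fruitless mutants and through RNAi against the ecdysone receptor. The sex experiment had 4 two-colour arrays, each comparing male and female Canton S (wild-type) CNS at 48 h after puparium formation (APF). Members were chosen by their ratios on these arrays: a probe was taken where it had at least 3 values, both dye orientations among them, all of 1 sign, and a mean of at least 0.7 log2 units from 0. Of 15744 probes (32 control spots were left out), 7414 had enough values, 860 of these kept 1 sign, and 132 also met the limit on the mean. Of the members, 21 were positive and 111 negative.

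In Drosophila, sex-specific splicing downstream of Sex-lethal and transformer gives males the FRUM proteins, transcription factors made from the P1 promoter of the gene fruitless (fru). FRUM acts in a subset of neurons and is needed for male courtship behaviour. The ecdysone receptor (EcR) is the nuclear receptor for the steroid hormone that drives metamorphosis, when the larval nervous system is rebuilt into that of the adult, and EcR-A is one of its isoforms.

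All animals other than the females of the sex experiment were male. The fru P1 mutants were 48 h APF pupae of 2 allele pairs, each with its own control strain. The pair fru-440/fru-P14 was compared with Canton S, and w; fru-w12/fru-ChaM5 with w; Berlin, so allele pair and strain background cannot be told apart. Whole bodies gave 8 arrays (4 a pair, about 30 pupae pooled per sample) and the CNS 6 arrays (3 a pair, about 20 brains with ventral nerve cords pooled). In the RNAi experiments, males carrying fru P1-GAL4; uas-EcRA RNAi were compared with fru P1-GAL4; + males at 0 h APF (CNS), at 48 h APF (brain) and as adults of 0 to 24 h (brain), with 4 arrays each. RNAi and control males thus share the GAL4 insertion, and the RNAi is expressed only in cells that use the driver, diluted among all other cells of the dissected tissue. CNS RNA was amplified before labelling and whole-body RNA was not. The design text calls the samples of an experiment independent biological samples. Whether the Canton S male RNA of the sex arrays was also used on the fru CNS arrays is not given in the sources used here.

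Each value is a deposited log2 ratio between the samples of 1 array, and 1 unit is a 2-fold difference. Which dye a sample carried is known from the labels, but which sample is the numerator is not, so signs are given as deposited and no probe is called male- or female-biased, nor higher or lower in a mutant. On the sex arrays, 23 probes exceeded 1 log2 unit on all 4 arrays. Of these, 22 kept their sign when the dyes were swapped and 0 changed it with the dye, and the ratios were read as already turned to 1 direction. The 23 were taken by size alone, but all 22 are members, since a probe of that size and constant sign meets the rule, so they are no evidence from outside the members. The rule itself rests on this reading, since in ratios of Cy5 over Cy3 a constant sign would be a dye difference. Over all 7414 probes with enough values, however, 42.9% changed sign with the dye orientation and 11.6% kept 1 sign. In the whole body 16 of 17 such strong probes kept 1 sign in fru-440/fru-P14 and 22 of 24 in fru-w12/fru-ChaM5. In the fru CNS, RNAi 0 h and RNAi adult experiments 0 of 2, 0 of 1 and 0 of 6 did. There 2 of 2, 0 of 1 and 5 of 6 changed sign with the dye. In the fru CNS each allele pair had 1 dye orientation only, so its 2 probes cannot tell the dye from the pair. The 5 of 6 in RNAi adult go against the reading used in the fits. The direction in all of these experiments is not settled. The probes are known here only by their array IDs, so neither gene names nor sequences can be given, and neither fru, EcR nor markers of the CNS could be checked. Between 3934 and 11533 probes had a value on an array.

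The sex ratios that chose the members are given as a description. The negative members had the larger ratios. Their means ran from -2.81 to -0.72 with a median of -1.26, and 82 of 111 lay beyond 2-fold. The positive members had means of 0.73 to 1.76 with a median of 0.90, and 6 of 21 lay beyond 2-fold. The negative members' median was -1.27, -1.20, -1.43 and -1.24 on replicates 1 to 4, close to the same level on each array. The positive members' median was 1.13, 0.36, 1.04 and 1.21, with replicate 2 lower than the others. The limit fell in a continuous series of means: the nearest probes inside it stood at 0.73 and -0.72, and the nearest outside it at 0.70 and -0.70.

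Membership depended on single arrays. With all 3 remaining values required, leaving out 1 sex array gave 17 to 51 positive members (51 without replicate 2) and 56 to 86 negative members (56 without replicate 1, 71 without replicate 4). A member with only 3 values drops out when 1 of its arrays is left out, whatever its ratios. This held for 60 of the 111 negative members, and 106 of the 111 had a value on replicate 1. The falls thus reflect missing values as well as ratios, and the 2 were not told apart. A value on every sex array was given for 13 of 21 positive and 51 of 111 negative members. The SD over a member's sex values had a median of 0.576 in the positive and 0.443 in the negative members, against 0.359 over all 7414 probes with enough values. The members were spread over the clone plates from which the probe IDs are built. Negative members came from 36 of 41 plates, with at most 7 on 1 plate, and positive members from 16, with at most 3.

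The individual members with the largest sex ratios differed in how steady they were. DAC029L10 had sex ratios of -2.04, -2.81, -3.43 and -2.65, a mean of -2.73. DAC029A06 had -3.81, -2.23, -1.98 and -2.21, a mean of -2.56 that its replicate 1 deepened. On the positive side DAC006G05 had 1.23, 1.17, 2.62 and 2.01, a mean of 1.76, and was higher in both arrays with male RNA in Cy5 than in both with female RNA in Cy5. DAC030D08 had 1.98, 0.06, 2.06 and 1.97, a mean of 1.52, with replicate 2 almost at 0.

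The members were not measured equally well elsewhere, and the shares differed between experiments. A probe counted as measured in an experiment where values were given on 75% or more of the arrays and in both dye orientations. In the whole body 100 of 111 negative members (90.1%) and 11 of 21 positive members (52.4%) were measured, against 63.6% of all probes with enough sex values. In the fru CNS the shares were 84 of 111 (75.7%) and 13 of 21 (61.9%), against 88.0%. In CNS of 0 h RNAi animals 41 negative members (36.9%) and 5 positive members (23.8%) were measured, against 68.8%. In adult brains 12 negative members (10.8%) and 6 positive members (28.6%) were, against 68.4%. No value at all was given on any adult array for 85 of the 111 negative members. At 48 h in RNAi brains, 73 negative (65.8%) and 9 positive members (42.9%) were measured, against 52.8%. Negative members thus were measured more often than all probes with enough sex values in whole bodies and 48 h RNAi brains. They were measured less often in the fru CNS, the 0 h CNS and adult brains. These are counts with no test. The sources used here do not say what left a value missing.

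The whole-body experiment asked which transcripts differ between fru P1 mutant and wild-type male pupae. In the fit with 1 mean over the arrays of both allele pairs, most positive members had negative ratios and most negative members lay near 0. The median effect was -0.88 over the 11 measured positive members, with 9 of 11 below 0, and -0.12 over the 100 measured negative members, with 76 below 0. It was 0.02 over all probes with enough sex values. By limma with Benjamini-Hochberg adjustment over all 7051 probes tested, 3 of 11 positive members and 1 of 100 negative members were called at an adjusted p under 0.05, where 1.38% of all probes were. All 4 calls had a negative ratio, as had those of 0.964% of all probes. Among the 11 positive members, 7 were below 0 on every array with a value, as were 113 of the 4716 measured probes with enough sex values. Of those 4716, 4.26% kept 1 sign, positive or negative, and 9.94% changed sign with the dye orientation.

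DAC013I17, a positive member, had whole-body ratios of -0.86, -1.51, -0.94 and -0.49 in fru-440/fru-P14 and of -1.9999, -1.10, -0.82 and -1.46 in fru-w12/fru-ChaM5. All 8 values were below 0, while its 4 sex ratios were above 0 (0.34, 0.27, 1.44 and 1.54). Its effect was -1.15 ± 0.139 (SE, n = 8 arrays, limma adjusted p = 0.00419). DAC035L08 and DAC036B24 were the other positive members called, and both are named because the count was small. DAC035L08 had -0.79, -1.89, -1.30 and -0.54 in the first pair and -1.21, -1.51, -1.998 and -0.43 in the second, an effect of -1.21 ± 0.179 (SE, n = 8 arrays, limma adjusted p = 0.011). DAC036B24 had -0.47, -1.03, -1.09 and -0.85 in the first pair and -0.67, -0.83, -2.35 and -1.87 in the second, an effect of -1.14 ± 0.155 (SE, n = 8 arrays, limma adjusted p = 0.00645). In all of these the whole-body sign was opposite to the sex sign as deposited, and the relative direction of the experiments is not known.

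DAC030D08 had still lower ratios in 1 pair. It stood at -1.02, -1.70, -0.82 and -0.56 in fru-440/fru-P14 and at -3.42, -4.74 and -1.46 in fru-w12/fru-ChaM5, with 1 array missing. In the fit with 1 mean over the arrays of both pairs it missed the threshold, at -1.97 ± 0.482 (SE, n = 7 arrays, limma adjusted p = 0.0966). With 1 effect a pair it was called in fru-w12/fru-ChaM5, at -3.30 ± 0.475 (SE, n = 3 arrays, limma adjusted p = 0.00217). In fru-440/fru-P14 it was not, at -1.02 ± 0.402 (SE, n = 4 arrays, limma adjusted p = 0.175). The pair difference of 2.27 ± 0.622 (SE, n = 7 arrays, limma adjusted p = 0.0315) was called. Among positive members with a positive whole-body effect, DAC003P12 had the smallest p, with 0.25 ± 0.165 (SE, n = 6 arrays, limma adjusted p = 0.56).

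Among negative members the single call was DAC034O21. Its ratios were -0.77, -0.96, -0.82 and -0.51 in fru-440/fru-P14 and -0.11, -0.66, -0.21 and -0.25 in fru-w12/fru-ChaM5, all below 0. The effect was -0.54 ± 0.11 (SE, n = 8 arrays, limma adjusted p = 0.0463), and the call was lost in 7 of 8 fits that left out 1 array. DAC028G19 had the smallest p among negative members with a positive effect, at 0.87 ± 0.23 (SE, n = 6 arrays, limma adjusted p = 0.132). This fit has no term for the allele pair. With a covariate for it the effect of DAC034O21 was -0.54 (limma adjusted p = 0.0025). That of DAC028G19 was then 0.69 (limma adjusted p = 0.0346).

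The average over pairs hid a split of the negative members. In fru-440/fru-P14 their ratios were mostly positive and in fru-w12/fru-ChaM5 mostly negative. Their median by array was 0.37, 0.25, 0.18 and 0.45 in the first pair and -0.48, -0.52, -0.41 and -0.38 in the second, so that the array medians of the pairs did not overlap. In the fit with 1 effect a pair, the median effect was 0.33 in fru-440/fru-P14, with 92 of 100 members above 0, and -0.53 in fru-w12/fru-ChaM5, with 88 of 100 below 0. Both signs at once, positive in the first pair and negative in the second, were found in 82 of the 100 members, and in 965 of the 4716 measured probes with enough sex values. The pairs' medians over those 4716 probes were -0.03 and 0.07.

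Many of these members passed the test within a pair. In fru-440/fru-P14, 20 of 100 negative members were called, 19 of them with a positive ratio, where 6.42% of all probes were called and 3.53% with a positive ratio. In fru-w12/fru-ChaM5, 72 of 100 were called, 65 with a negative ratio, where 23.2% of all probes were called and 13.9% with a negative ratio. The difference between the pairs was tested in the same arrays, a test added after the values were seen. It was called in 75 of 100 negative members (71 with a higher ratio in fru-440/fru-P14), where 20.7% of all probes were (13.2% with a higher ratio in fru-440/fru-P14), and its median over the negative members was 0.81. The count in fru-440/fru-P14 was the less stable: the 23 calls over all members became 7, 6, 14 and 7 without each of that pair's replicates 1 to 4, and 44 with the pair fitted alone. The share of all probes called in these refits was not recorded. With the ratios read as Cy5 over Cy3, which the strong probes of both pairs go against, 0 members were called in either pair. As each pair had its own control strain, alleles and strains cannot be told apart, and fewer cells of a type and less RNA per cell cannot be told apart in these pooled tissues.

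DAC029A06 shows the split in 1 probe. It stood at 0.14, 0.11, 0.44 and 0.90 in fru-440/fru-P14 and at -1.41, -1.17, -0.51 and -0.11 in fru-w12/fru-ChaM5, without overlap. The difference between the pairs was 1.20 ± 0.168 (SE, n = 8 arrays, limma adjusted p = 0.00148). DAC028G19 went the other way, with 0.66 and -0.33 in fru-440/fru-P14 (2 arrays only) and 1.53, 0.85, 1.54 and 0.97 in fru-w12/fru-ChaM5. Its difference was -1.05 ± 0.307 (SE, n = 6 arrays, limma adjusted p = 0.0439). DAC029L10, the negative member with the largest sex mean among those with 4 values, showed no such split. Its values of 0.98, 0.35 and -0.09 in the first pair and 0.37, 0.11, 0.08 and 0.38 in the second overlapped, and the difference of 0.23 ± 0.218 (SE, n = 7 arrays, limma adjusted p = 0.482) missed the threshold.

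The positive members had mostly negative ratios in both pairs. Of the 11 measured, 8 were below 0 in both pairs. Their median effect was -0.52 in fru-440/fru-P14, where 3 were called, and -1.30 in fru-w12/fru-ChaM5, where 8 were called, each with a negative ratio, where 2.89% and 13.9% of all probes were called with one. The pair difference was called in 3 of 11, where 20.7% of all probes were called. Medians by array were taken over every positive member with a value there, 7 to 16 an array, and so include probes outside the 11. They were -0.47, -0.997, -0.60 and -0.49 in the first pair and -0.67, -0.83, -0.57 and -0.43 in the second. These array medians overlapped between the pairs but cover another set than the median effects above.

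The CNS experiment put the same fru allele pairs against the same control strains in dissected nervous tissue, the tissue in which the members were chosen. The measured members of both signs had mostly positive ratios, and none passed the test. The median effect was 0.44 over 84 negative members, with 76 above 0, and 0.29 over 13 positive members, with 9 above 0, against -0.04 over all probes with enough sex values. With the ratios read as Cy5 over Cy3 the medians turned to -0.16 and -0.15. By limma 0 of 97 members were called, where 0.67% of all 7461 probes tested were. At an unadjusted p under 0.05 there were 25 members, 20 of them negative members, where 12.4% of all probes passed. The count depended on single arrays. It was 15 of 118 members without replicate 1, 5 of 121 without replicate 6 and 1 of 98 without replicate 4. In the Cy5 over Cy3 reading 12 of 97 were called. Turning the ratios changes the sign of the fru-440/fru-P14 arrays only here, so in that count the reading and a difference between the pairs cannot be told apart. The share of all probes called in these refits was not recorded, so whether calls rose over all probes too is not known.

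The arrays of this experiment were uneven. The negative members' median was -0.82 on replicate 1, 0.87 on replicate 2 and 0.78 on replicate 3, all of fru-w12/fru-ChaM5 with mutant RNA in Cy5. It was 1.01, 0.22 and 0.53 on replicates 4 to 6, all of fru-440/fru-P14 with wild-type RNA in Cy5. On replicate 1, 80 of 84 negative members were below 0, opposite to the others. The residual SD comes from the fit shared with the 0 h and adult RNAi arrays, so it is not the spread of the fru CNS arrays alone. Its median over the negative members was 0.882, against 0.274 over all probes with enough sex values. Each pair had 1 dye orientation only, so here pair and dye cannot be told apart. The median was above 0 on 5 of 6 arrays.

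DAC015A16 came closest to the threshold among negative members with a positive ratio, with 1.43 and 1.11 on replicates 2 and 3 and 1.24, 0.88 and 0.04 on replicates 4 to 6. All 5 values were above 0, and the effect was 1.00 ± 0.178 (SE, n = 5 arrays, limma adjusted p = 0.0637). DAC039L21 had the smallest p among negative members with a negative ratio, with -0.55, -0.25 and 0.11 in the first 3 arrays and -0.93 and -1.32 in the next 2. Its effect was -0.68 ± 0.134 (SE, n = 5 arrays, limma adjusted p = 0.0856).

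Among positive members, DAC013D06 had 0.45, 0.97 and 0.71 in fru-w12/fru-ChaM5 and 1.09 and 0.50 in fru-440/fru-P14, all above 0 as were its sex ratios. Its effect was 0.75 ± 0.135 (SE, n = 5 arrays, limma adjusted p = 0.0637). DAC016H20, with the smallest p on the negative side, stood at -0.31 ± 0.153 (SE, n = 5 arrays, limma adjusted p = 0.454). The 3 positive members called in the whole body had positive CNS effects that missed the threshold. DAC013I17 stood at 0.93 ± 0.285 (SE, n = 6 arrays, limma adjusted p = 0.22), with -0.62 on replicate 1 and 0.36 to 2.31 on the others. The effect of DAC035L08 was 0.66 ± 0.168 (SE, n = 6 arrays, limma adjusted p = 0.115) and that of DAC036B24 0.37 ± 0.241 (SE, n = 6 arrays, limma adjusted p = 0.57). DAC029L10 had -0.47, -0.26 and -0.53 in fru-w12/fru-ChaM5 and 0.98, 0.73 and 0.16 in fru-440/fru-P14, groups that did not overlap and that also differ in dye orientation.

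The RNAi experiments asked what changes when EcR-A is targeted in fru P1 cells of males. At 0 h APF the measured negative members had mostly negative effects, but their arrays disagreed and none passed the test. The median effect over 41 negative members was -0.21, with 33 below 0, and over 5 positive members it was 0.01. By limma 0 of 46 members were called, where 0.388% of all 5934 probes tested were, and 0 of 46 passed an unadjusted p of 0.05, where 7.35% of all probes did. The median by array over every negative member with a value there was -0.44, -0.44, -1.01 and 0.67, with replicate 4 opposite to the others. In the fit shared with the fru CNS and adult arrays, the residual SD of the 41 had a median of 0.974. Over all probes with enough sex values it was 0.267. Of the 41 members, 39 were also measured in the fru CNS, so this residual SD and the one given there share most of their probes. The median effect moved to 0.03 without replicate 3 and reached -0.58 in the lowest of the other fits that left out 1 array.

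DAC013I23 had the smallest p among negative members with a negative effect at 0 h, with -1.11, -1.25, -1.37 and 0.18. Replicate 4 stood apart, and the effect was -0.89 ± 0.405 (SE, n = 4 arrays, limma adjusted p = 0.683). DAC029L10 was closest to the threshold on the positive side, at 0.24 ± 0.147 (SE, n = 4 arrays, limma adjusted p = 0.791). The positive members DAC027O08, at 0.19 ± 0.354 (SE, n = 3 arrays, limma adjusted p = 0.974), and DAC026L24, at -0.20 ± 0.198 (SE, n = 4 arrays, limma adjusted p = 0.926), had errors as large as their effects.

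In adult brains the few members measured gave no call. The median effect was 0.07 over 12 negative members, with 8 above 0, and -0.13 over 6 positive members. By limma 0 of 18 were called, where 0.0501% of all 5992 probes tested were, and 2 negative members passed an unadjusted p of 0.05, where 3.52% of all probes did. With the ratios read as Cy5 over Cy3, 5 of 18 members were called and the negative members' median turned to -0.50. The share of all probes called in that reading was not recorded. By array the median over every negative member with a value there was -0.31 and -0.43 on replicates 1 and 2. It was 0.79 and 0.46 on replicates 3 and 4. Of the 12 measured, 7 (58.3%) changed sign with the dye orientation, close to the 48.1% of all measured probes with enough sex values. DAC029L10 had -0.60, -0.18, 0.84 and 1.30, an effect of 0.34 ± 0.147 (SE, n = 4 arrays, limma adjusted p = 0.998). DAC031L03 had the smallest p among negative members with a negative effect, at -0.40 ± 0.477 (SE, n = 3 arrays, limma adjusted p = 0.998). The positive members DAC039C09, at 0.09 ± 0.255 (SE, n = 4 arrays, limma adjusted p = 0.998), and DAC004P06, at -0.23 ± 0.15 (SE, n = 4 arrays, limma adjusted p = 0.998), missed the threshold at this number of arrays.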

How the data were processed

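Dual-channel arrays with a dye swap compared 2 samples each. The authors deposited 1 normalized log2 ratio per probe and array, made with limma per the submitters' processing notes, whose version is not given in the sources used here. Replicates 2 to 4 of the 48 h RNAi experiment hold a deposited score of unknown scale, so that experiment was not fitted and only signs, ranks within an array and missing values were read from it. The sources used here name no centring step or spot filter.

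Effects were fitted here with limma 3.58.1 in R 4.3.3. The 14 CNS arrays of the fru, 0 h and adult RNAi experiments shared 1 fit with an effect and a dye coefficient per experiment; the sex arrays were left out because they chose the members. The 8 whole-body arrays had a mean and a dye coefficient, or 1 effect per allele pair and a dye coefficient. P-values were adjusted over all probes tested (Benjamini-Hochberg, threshold 0.05). A call says that the mean ratio differs from 0. The shared CNS fit and the whole-body fit with 1 mean were tested on simulated data with independent noise per probe. The fits with 1 effect per allele pair and of the pair difference were not. The dye coefficient absorbs the gap between orientations, so an array alone in its orientation is fitted exactly. Precision is limited by the number of arrays.

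The named probes are, in the sex experiment, the 2 positive and 2 negative members with the largest mean among those with 4 values and, per experiment, the member with the smallest p for each combination of member sign and effect sign. The probe table at hand does not pair the IDs with genes, so the gene lists could not be used. The members and lists were chosen with earlier results of these data known.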

Additional observations from a re-analysis of the deposited data

Results flagged for a closer look

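In 30 groups of values, taken from the named members and from the members' medians by array, 3 had 1 array far from the rest. Chance gives about 1 in 20 for independent groups of values that were not selected. Here the sex values chose the members, and outside the sex experiment the named members were chosen by their p in the same experiment. Some groups also shared arrays. The 3 were DAC013I23 at 0 h RNAi, with 0.18 on replicate 4, DAC030D08 in the sex experiment, with 0.059 on replicate 2, and DAC029A06 in the sex experiment, with -3.81 on replicate 1. The whole-body effect of DAC028G19 differed between the allele pairs by -1.05 (limma adjusted p = 0.0439), fru-440/fru-P14 minus fru-w12/fru-ChaM5, with the fru-440/fru-P14 value resting on 2 arrays.

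The negative members' median lay above 0 on all 4 whole-body arrays of fru-440/fru-P14 and below 0 on all 4 of fru-w12/fru-ChaM5, a difference of 0.761 between the means of the array medians. This difference of medians was not tested.

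The 48 h RNAi arrays entered no comparison. Of the 73 negative members measured on them, 42 were below 0 on every array with a value, as were 284 of the 3916 measured probes with enough sex values. Of those 3916, 17.0% kept 1 sign, positive or negative. By array, 83 of 93, 60 of 63, 57 of 81 and 60 of 75 negative members were below 0. Their median percentile among the probes of the array was 12.7, 9.99, 37.6 and 7.64, so replicate 3 lay nearest to the middle.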

How the results depend on the processing

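Of the recomputed values, 89 of 116 counts, 127 of 146 medians and 153 of 176 effects of named probes kept their direction and size class or their side of the threshold. The share of all probes called was not recorded for the recomputed fits, so their counts of calls among members have no such share beside them. Reading the ratios as Cy5 over Cy3 changed most, by its own construction. It gave 0 calls among members in the whole body, in each allele pair and in the pair difference, 12 in the fru CNS, 1 at 0 h RNAi and 5 in adults. The positive members' median became 0.10 in the whole body, -0.14 in fru-440/fru-P14, 0.29 in fru-w12/fru-ChaM5, -0.15 in the fru CNS and -0.35 at 0 h. The negative members' median became -0.034 in fru-440/fru-P14, -0.033 in fru-w12/fru-ChaM5, -0.16 in the fru CNS and -0.50 in adults. DAC013D06 moved to -0.043 and DAC039L21 to 0.45 in the fru CNS, and DAC029L10 to -0.23 at 0 h and -0.73 in adults (limma adjusted p = 0.00625).

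A covariate for the allele pair gave 16 whole-body calls among members. Fitting a pair alone gave 44 calls in fru-440/fru-P14 and a median of -0.96 over the positive members in fru-w12/fru-ChaM5. At least 2 values in each orientation gave 1 call in the fru CNS and a median of -0.089 over the positive members at 0 h. Adding the sex arrays to the fit gave 4 calls in the fru CNS. A limit of 1.0 left 6 positive members and 0 whole-body calls, a limit of 0.5 gave 55 and 7, and requiring 4 values left 13 positive and 51 negative members. The cause of these changes was not tested.

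Leaving out 1 array at a time gave 3 to 4 whole-body calls, 0 to 15 in the fru CNS, 6 to 33 in fru-440/fru-P14, 68 to 77 in fru-w12/fru-ChaM5, 66 to 81 for the pair difference, and 17 to 51 positive and 56 to 86 negative members. The positive members' median ran from -1.12 to -0.85 in the whole body, -0.86 to -0.45 in fru-440/fru-P14, -1.47 to -1.01 in fru-w12/fru-ChaM5 and -0.077 to 0.0021 at 0 h. The negative members' median ran from -0.58 to 0.027 at 0 h and from -0.048 to 0.20 in adults, and DAC039C09 from -0.29 to 0.47. A prior spread over all probes and the pair-difference alternatives were chosen after seeing the data. Each log2 ratio is itself a paired comparison, since both samples share a slide. Beyond that, no paired analysis was possible because each comparison lies within the arrays of 1 experiment and a replicate number pairs no groups compared.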
